A study of Mus musculus with 2 samples.

Results

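The expression of pendrin and of other genes of acid-base transport was examined in nuclei of the stria vascularis (SV), by class of nucleus. The 9 genes were taken by symbol from the 48816 features of the deposited matrices, and were chosen with earlier results of these data known. They were Slc26a4 (pendrin), Slc26a7, Slc4a11, Atp6v1b1, Atp6v0a4, Atp6v1b2, Car2, Car3 and Foxi1. They belong to a list of 78 genes of acid-base transport, whose other members are described after them.

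The SV came from CBA/J mice at P30, and single-nucleus RNA-Seq was run on 2 libraries that differed in preservation. In the MethFix library, tissue of about 5 to 6 mice was pooled and the nuclei were fixed in methanol after isolation. In the RNAlater library, tissue was pooled and kept in RNAlater before isolation. The labels give about 10 mice for it and the study's methods give fewer. The MethFix matrix held 4748 barcodes with 21027671 unique molecular identifiers (UMIs, each a tagged RNA molecule) and the RNAlater matrix 3868 barcodes with 17681824 UMIs. The median was 3469 UMIs per barcode in MethFix and 3998.5 in RNAlater.

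There is 1 library per preservation method, and the libraries are not independent of each other. Of their barcodes, 3323 occurred in both matrices, and of the 2124 barcodes that were kept and given a class in both, 2103 were given the same class. In the 67 root-like barcodes found in both, 592 UMIs of Slc26a4 were counted in MethFix and 706 in the RNAlater matrix. The UMIs per barcode differed by at most 1 in 40 of the 67. The values of the matrices are therefore given side by side, without a test and without a count of replicates. Intervals are 95% intervals and cover counting error only.

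Pendrin exchanges chloride for bicarbonate across the apical membrane of epithelial cells and is known in the cochlea from root cells and from the spindle cells at the edges of the SV. Loss of pendrin acidifies the endolymph and enlarges its space. In the kidney and the endolymphatic sac, pendrin is made by cells that also carry a plasma membrane proton pump with the subunits ATP6V1B1 and ATP6V0A4, and the transcription factor FOXI1 drives all 3 genes there. Carbonic anhydrases supply such cells with bicarbonate and protons.

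Because Slc26a4, Atp6v1b1 and Atp6v0a4 share that factor elsewhere, their promoters are shown as a background to their different levels in the SV. Each line gives the RefSeq window from 250 bases before to 50 bases after the start of the gene on GRCm38.p6, 5′ to 3′ on the strand of the gene. Capitals mark matches to the forkhead core TGTTT on either strand, written as AAACA where it lies on the reverse strand, or to the longer TGTTTAC, which contains the core.
Slc26a4, chr12:31559935-31560234, minus strand: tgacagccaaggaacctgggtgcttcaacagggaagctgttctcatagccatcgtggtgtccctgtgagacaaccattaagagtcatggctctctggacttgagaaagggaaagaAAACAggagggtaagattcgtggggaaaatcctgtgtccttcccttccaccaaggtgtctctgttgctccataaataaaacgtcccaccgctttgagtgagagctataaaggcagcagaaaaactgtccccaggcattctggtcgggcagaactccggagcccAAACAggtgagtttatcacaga
Atp6v1b1, chr6:83742767-83743066, plus strand: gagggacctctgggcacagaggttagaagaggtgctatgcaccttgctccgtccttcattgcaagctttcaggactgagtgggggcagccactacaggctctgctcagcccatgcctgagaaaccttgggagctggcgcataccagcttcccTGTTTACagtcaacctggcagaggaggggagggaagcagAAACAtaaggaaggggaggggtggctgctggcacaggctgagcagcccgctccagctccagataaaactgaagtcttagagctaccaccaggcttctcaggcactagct
Atp6v0a4, chr6:38124537-38124836, minus strand: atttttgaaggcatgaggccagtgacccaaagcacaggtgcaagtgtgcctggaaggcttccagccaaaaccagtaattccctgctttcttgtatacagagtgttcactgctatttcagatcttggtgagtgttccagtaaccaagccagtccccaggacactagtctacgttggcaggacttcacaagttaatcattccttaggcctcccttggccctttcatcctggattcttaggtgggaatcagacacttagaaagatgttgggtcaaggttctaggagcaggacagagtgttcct
The Slc26a4 window held 2 matches to TGTTT and none to TGTTTAC, the Atp6v1b1 window held 2 matches to TGTTT, 1 of them within TGTTTAC, and the Atp6v0a4 window held neither. Of all 32851 promoter windows of this length, 50.5% held TGTTT and 3.65% held TGTTTAC. A match is a description of the letters and says nothing of binding. Windows were matched for 4 of the 9 genes.

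The classes of nuclei were read from markers. After filtering, 3372 MethFix and 2311 RNAlater nuclei were kept and clustered with the 78 genes left out of the genes that drive the clustering, so that none of them defined a class. Root-like nuclei, 72 in MethFix and 69 in RNAlater, were called by Ceacam16, Epyc and Lgr5. Spindle-like nuclei, 97 and 56, were called by Anxa1 and Il1rapl2 with Dpp10, Kcnq5 and Dkk2. These markers defined the classes, and their levels are given as a description. Dpp10 was also among the leading genes of a marginal-like cluster of 195 nuclei in RNAlater. Anxa1 was at 2422 UMIs per 1000000 UMIs of the class (CPM) in MethFix spindle-like nuclei against 9.06 in root-like nuclei, and no spindle-like nucleus held an Lgr5 UMI. In tissue sections, the study also saw Lgr5 RNA in Deiters cells and the outer sulcus, and Epyc RNA in the greater epithelial ridge and outer sulcus.

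Root-like nuclei fell into 2 clusters with different markers. The Lgr5-led cluster held 34 nuclei in each library, with Lgr5 at 1275 CPM in MethFix and 1279 CPM in RNAlater against 87.3 and 91.2 CPM in the Epyc-led cluster of 38 and 35 nuclei. Ceacam16 went the other way, at 153 and 183 CPM in the Lgr5-led cluster and at 2978 and 2573 CPM in the Epyc-led cluster. The Epyc-led cluster is called by its Epyc level, 1281 and 1159 CPM against 382 and 365 CPM in the Lgr5-led cluster. By share of nuclei the order was the reverse. Epyc was found in 17 of 38 and 19 of 35 Epyc-led nuclei, with up to 32 and 43 UMIs in 1 nucleus. It was found in 20 of 34 and 22 of 34 Lgr5-led nuclei. A small cluster of 14 and 13 nuclei with Ceacam16 at 6490.5 and 7169 CPM had no Epyc UMI and stayed without a name. It held Lgr5 at 260 and 320 CPM. Its best score was for root (4.57 and 4.76), but it did not meet the naming thresholds and was left out of the root-like class.

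The other classes were marginal-like (1084 and 671 nuclei), intermediate-like (853 and 522), basal-like (748 and 604) and bone-like (106 and 57), with 17 fibrocyte-like nuclei called in RNAlater only. Small classes were endothelial-like (10 and 6 nuclei), pericyte-like (7, MethFix only) and macrophage-like (14, RNAlater only), and those under 10 nuclei entered no comparison. A cluster of 155 nuclei in each library is called the Dkk2/Cndp1 cluster. Its best score was for Reissner's membrane, with Otx2 at 364 and 337 CPM, Vmo1 at 109 and 94.0 CPM and Lmx1a at 2328 and 2483 CPM, but none of those markers was among its top 10 genes, and Dkk2 is on the spindle list. Classes differed in depth, from a median of 2272 UMIs in the Dkk2/Cndp1 cluster of MethFix to 6088 in marginal-like nuclei of RNAlater.

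Slc26a4 (chr12:31519827-31559969, minus strand) was concentrated in root-like and spindle-like nuclei. They made up 5.01% of the kept MethFix nuclei and held 89.5% of the Slc26a4 UMIs (933 of 1042). In RNAlater they made up 5.41% of the nuclei and held 90.4% (977 of 1081).

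Root-like nuclei stood at 2682 CPM of Slc26a4 in MethFix (95% interval 2470.2 to 2907) and at 2803 CPM in RNAlater (2599.6 to 3017). Spindle-like nuclei stood at 1300.4 CPM in MethFix (1166 to 1446) and at 1395 CPM in RNAlater (1234 to 1571). Nuclei were also chosen by a gate instead of by cluster, from all kept nuclei. Root nuclei held at least 2 UMIs of Ceacam16, Epyc and Lgr5 together and none of Anxa1 or Il1rapl2, and spindle nuclei the reverse. In MethFix and RNAlater, the 76 and 78 nuclei gated as root stood at 1709.5 and 2024 CPM. The 125 and 95 nuclei gated as spindle stood at 597 and 549 CPM. These shifts were larger than the counting intervals, and the gate drew in nuclei of other clusters. By cluster, the Dkk2/Cndp1 cluster came next, with 189 CPM in MethFix (149 to 237) and 163 CPM in RNAlater (130 to 203). The intervals of neighbours in this order did not overlap in either library down to the Dkk2/Cndp1 cluster. Marginal-like, intermediate-like, basal-like and bone-like nuclei followed at 1.05 to 13 CPM, with intervals that overlapped one another. The 17 fibrocyte-like nuclei of RNAlater held no Slc26a4 UMI.

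Barcodes found in the MethFix matrix alone gave a value apart from RNAlater for some classes. In spindle-like nuclei, 38 such barcodes held 89 Slc26a4 UMIs, a level of 1254 CPM (1007 to 1543), beside 1318 CPM (1159.9 to 1491) in the 59 barcodes found in both matrices. In root-like nuclei, 4 such barcodes with 7435 UMIs in all held no Slc26a4 UMI, and the 68 others held all 592. The root-like levels of the libraries thus rest on nearly the same barcodes, and the Lgr5-led cluster described next has the same 34 barcodes in both.

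**Figure D1:**
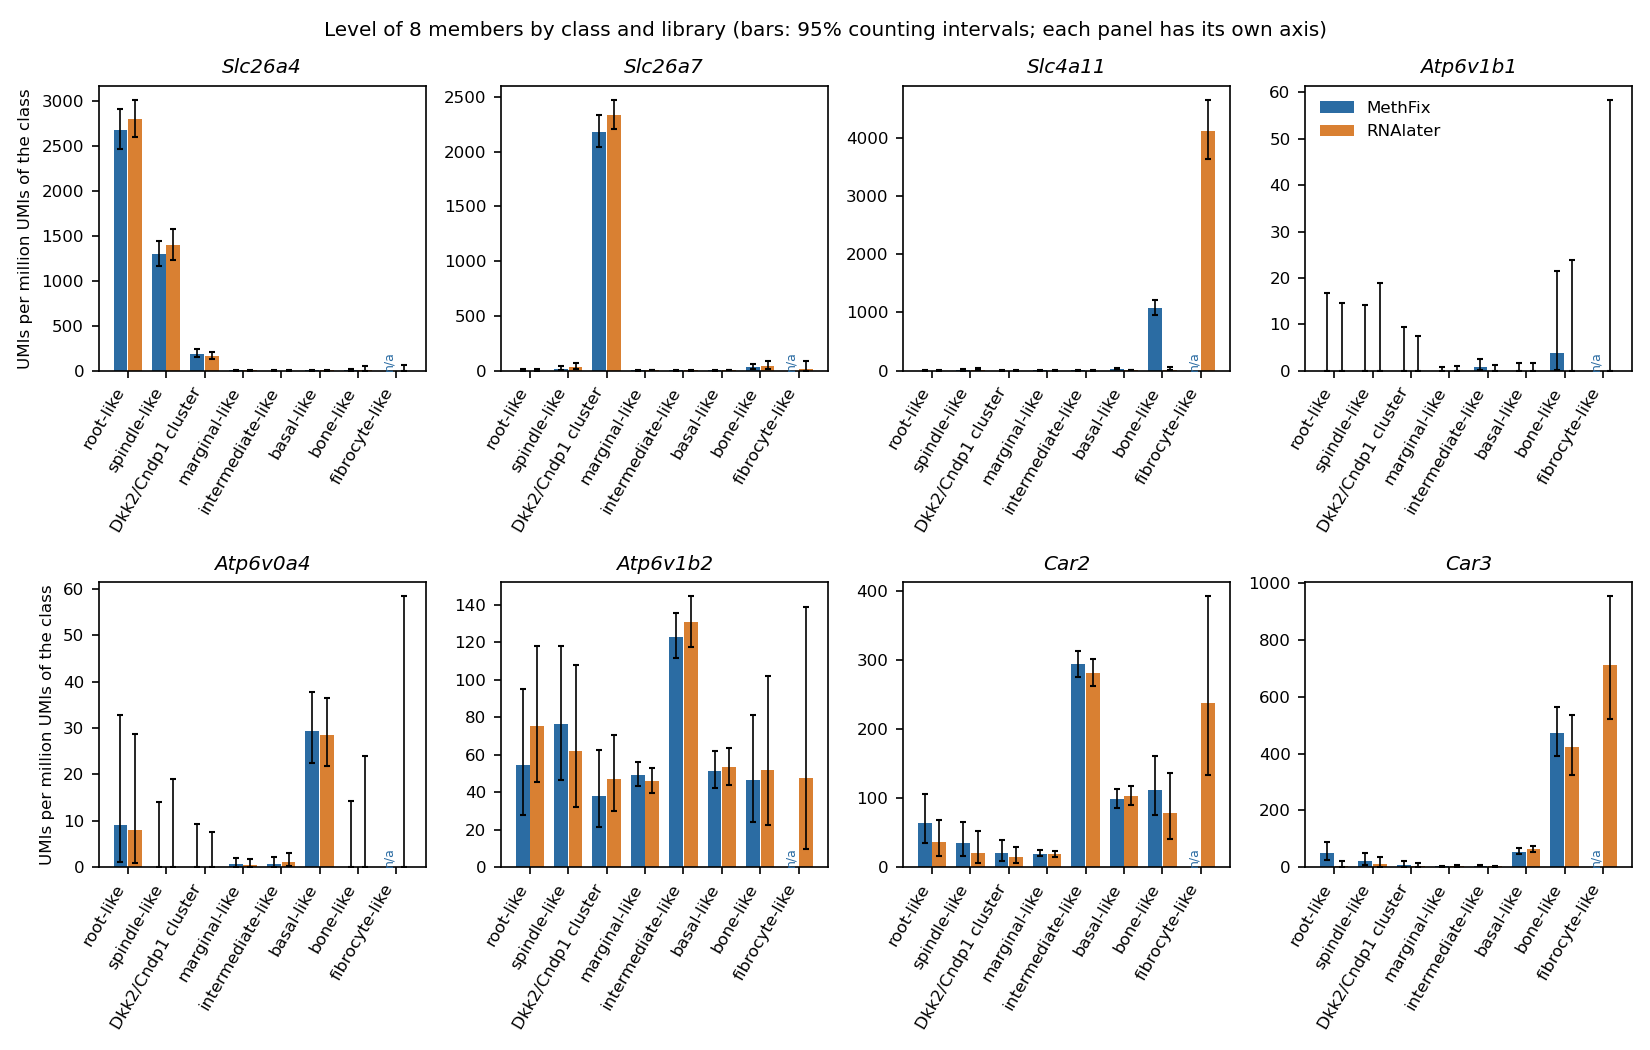
Bars give the level of 8 of the 9 genes by class of nucleus and library, in UMIs per 1000000 UMIs of the class (CPM), on a linear axis of its own in each panel, with error bars for the exact 95% Poisson interval and n/a where MethFix has no fibrocyte-like class; Foxi1, with no UMI, is not drawn. Slc26a4 is highest in root-like nuclei (2682 and 2803 CPM) and Slc26a7 in the Dkk2/Cndp1 cluster (2181 and 2336 CPM).

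The share of nuclei with a Slc26a4 UMI ordered the classes differently from the level. A UMI was found in 72.2% of MethFix root-like nuclei (60.4 to 82.1%) and 78.4% of spindle-like nuclei (68.8 to 86.1%), at median depths of 2753 and 2453 UMIs. In RNAlater the shares were 79.7% and 89.3%, at 3402 and 3325 UMIs. With each nucleus thinned to 1000 UMIs, the shares were 66.7% and 62.6% in MethFix and 70.8% and 56.6% in RNAlater. No order of root-like and spindle-like nuclei is read from the unthinned shares. In marginal-like nuclei, which are not known to make pendrin and were deeper (4564.5 and 6088 UMIs), the share was 0.83% and 1.19%.

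Within the root-like class, Slc26a4 was unequal. Every nucleus of the Lgr5-led cluster held it, with 1 to 43 UMIs per nucleus in MethFix (median 11) and 2 to 49 in RNAlater (median 16.5). In the Epyc-led cluster the range was 0 to 12 in MethFix (median 0), where 18 of 38 nuclei held a UMI. In RNAlater it was 0 to 13 (median 1), where 21 of 35 did. Spindle-like nuclei lay between, with 0 to 24 UMIs (median 2) in MethFix and 0 to 26 (median 3) in RNAlater. The ranges of the clusters overlapped, although 20 of 34 MethFix nuclei and 28 of 34 RNAlater nuclei of the Lgr5-led cluster held 10 UMIs or more, against 1 Epyc-led nucleus in each library.

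As a level, the Lgr5-led cluster stood at 4462 CPM in MethFix (4088.6 to 4861) and 4399 CPM in RNAlater (4061 to 4758), and the Epyc-led cluster at 650.0 CPM (504 to 825) and 730 CPM (579 to 908). The log2 ratio of the clusters was 2.78 in MethFix (2.41 to 3.17) and 2.59 in RNAlater (2.25 to 2.95), where 8.37% of 2186 genes were higher and 12.1% lower by a log2 ratio of at least 1 in both libraries. The 34 nuclei of the Lgr5-led cluster, 1.01% of the kept MethFix nuclei and 1.47% of those of RNAlater, held 50.4% and 57.9% of the Slc26a4 UMIs. The unnamed Ceacam16 cluster held no Slc26a4 UMI in either library.

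**Figure D2:**
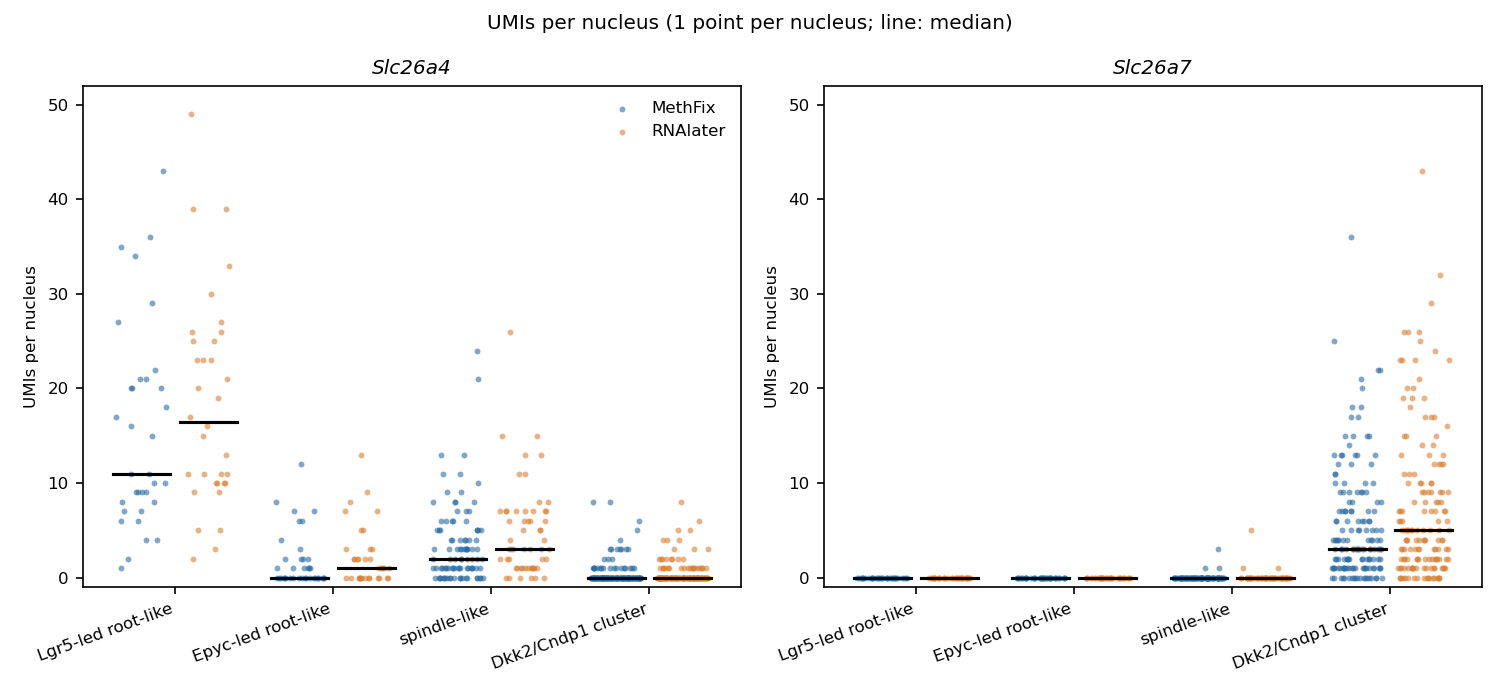
UMIs per nucleus of Slc26a4 (left) and Slc26a7 (right) in the 2 root-like clusters, spindle-like nuclei and the Dkk2/Cndp1 cluster, with 1 point per nucleus and lines at the median, in MethFix and RNAlater. The 34 nuclei of the Lgr5-led root-like cluster all lie above 0 for Slc26a4 (medians 11 and 16.5), while the Epyc-led nuclei have medians of 0 and 1.

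The comparison of root-like with spindle-like nuclei depended on which root-like nuclei entered it. With both clusters, the log2 ratio of Slc26a4 was 1.04 in MethFix (0.85 to 1.24) and 1.01 in RNAlater (0.80 to 1.21). With the Lgr5-led cluster alone it was 1.78 and 1.66. With the Epyc-led cluster alone it turned to -1.0 and -0.93, so that those nuclei were below spindle-like nuclei. With the unnamed Ceacam16 cluster counted as root-like, it was 0.73 and 0.72. These 3 choices were added after the values had been seen.

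**Figure D3:**
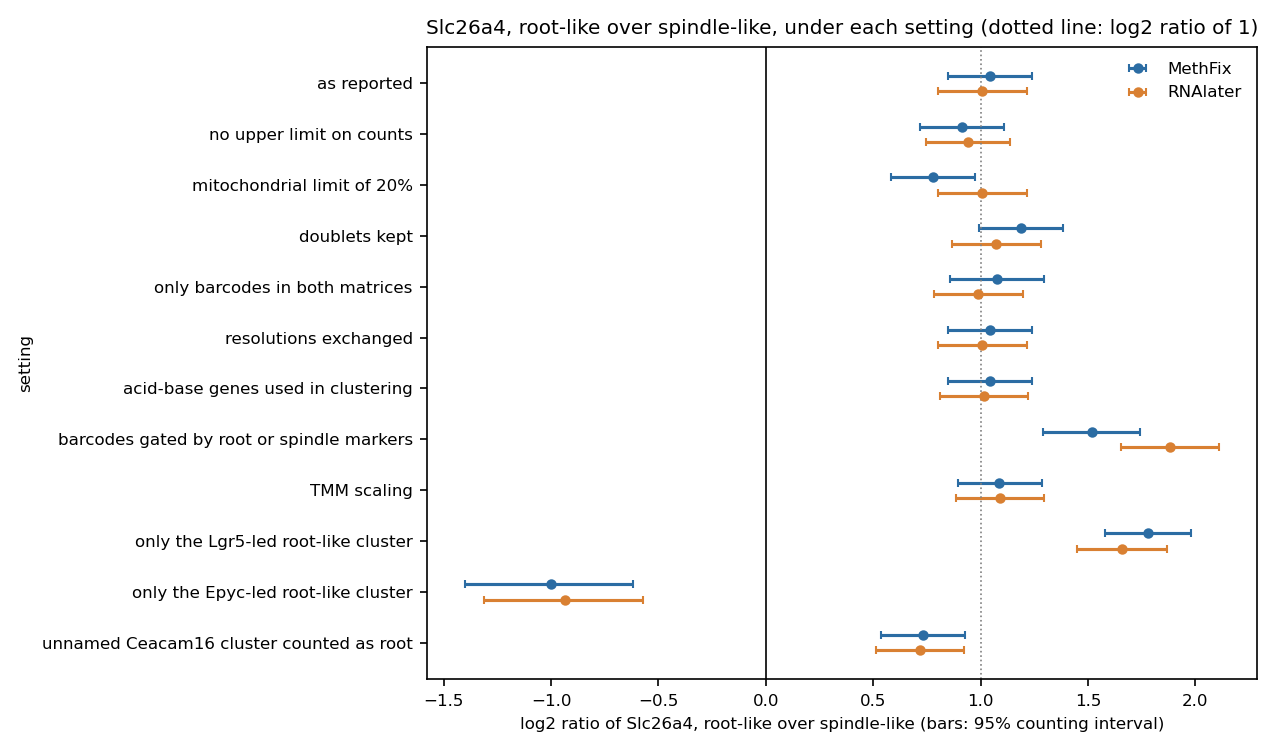
Log2 ratio of Slc26a4 in root-like over spindle-like nuclei as reported and under 11 other settings of filtering, clustering, scaling and choice of root-like nuclei, 1 setting per row, with MethFix and RNAlater as separate points, bars for the 95% counting interval, a solid line at 0 and a dotted line at 1. The ratio is above 0 with both clusters (1.04 and 1.01) and below 0 with the Epyc-led cluster alone (-1.0 and -0.93).

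The 5 other classes with at least 10 nuclei in each library were pooled for the next comparison, which left out the endothelial-like class. Root-like and spindle-like nuclei were higher than this pool in Slc26a4, by a log2 ratio of 7.69 in both MethFix (interval 7.39 to 8.0) and RNAlater (7.40 to 8.0). A gene was counted as higher or lower where the log2 ratio was at least 1 in size in both libraries and the gene had at least 20 UMIs in the nuclei compared. Of the 9 genes, 7 had enough UMIs, 1 was higher (Slc26a4) and 2 were lower (Slc26a7 and Car2), where 8.56% of all 13140 genes were higher and 10.8% were lower. With the gate on marker UMIs neither gene counted as lower, with log2 ratios of -0.93 and -0.96 for Slc26a7 and of -1.11 and -0.77 for Car2. Each of these 2 calls rested mostly on 1 class of the pool. In MethFix and RNAlater, the Dkk2/Cndp1 cluster held 94.5% and 96.1% of the kept Slc26a7 UMIs. Intermediate-like nuclei held 69.3% and 67.6% of those of Car2. Against single classes the direction varied. Spindle-like nuclei, at 19.1 and 36.0 CPM of Slc26a7, stood above marginal-like nuclei at 3.01 and 3.55 CPM, and root-like nuclei held no UMI of it. Between root-like and spindle-like nuclei, 2 of the 9 had enough UMIs and Slc26a4 was higher, with 10.3% of 4076 genes higher and 10% lower. This call lay close to the threshold and was lost with no upper limit on UMIs (0.91 and 0.94), with a mitochondrial limit of 20% (0.78 in MethFix) and with barcodes found in both matrices alone (0.99 in RNAlater). At a log2 ratio of 2, Slc26a4 still counted as higher and Slc26a7 as lower than the pool, where 3.39% of all genes were higher and 3.41% lower. None of the 9 passed a log2 ratio of 2 between root-like and spindle-like nuclei, where 4.05% of genes were higher and 4.2% lower.

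Slc26a7 (chr4:14502430-14621805, minus strand), a relative of pendrin that carries anions and is known from kidney, stomach and Reissner's membrane, marked another class. The Dkk2/Cndp1 cluster stood at 2181 CPM in MethFix (2038 to 2332) and 2336 CPM in RNAlater (2202 to 2475), and held 94.5% and 96.1% of its UMIs. A UMI was found in 136 of 155 nuclei (87.7%) and 137 of 155 (88.4%), with medians of 3 and 5 and highest values of 36 and 43 UMIs per nucleus. The 11 barcodes of the cluster found in MethFix alone stood at 1406 CPM (891 to 2109), beside 2215 CPM (2067 to 2369.5) in the 144 found in both matrices.

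Root-like nuclei held no Slc26a7 UMI in either library, which, counted as 3 nuclei, allows a share of nuclei with a UMI of up to 4.17% of 72 in MethFix and 4.35% of 69 in RNAlater. Such a limit bounds nuclei with a captured UMI, not nuclei that express the gene. Spindle-like nuclei held 5 and 7 UMIs, each in 3 nuclei. The other named classes with a Slc26a7 UMI stood at 2.36 to 38.9 CPM. The small endothelial-like, pericyte-like and macrophage-like classes held none. The log2 ratio of root-like and spindle-like nuclei over the 5 other classes was -3.01 in MethFix (-4.64 to -1.78) and -2.96 in RNAlater (-4.28 to -1.92).

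Slc26a4 and Slc26a7 were highest in different classes, and both were found in the Dkk2/Cndp1 cluster. There, 32 MethFix and 37 RNAlater nuclei held a Slc26a4 UMI, at most 8 per nucleus. Slc26a7 was found in 29 of those 32 nuclei (90.6%, 75 to 98.0%) and in 107 of the 123 others (87.0%, 79.7 to 92.4%). In RNAlater it was found in 32 of 37 (86.5%, 71.2 to 95.5%) and in 105 of 118 (89.0%, 81.9 to 94.0%). The intervals overlapped, and nuclei with Slc26a4 were deeper (medians of 3232 against 2117 UMIs in MethFix).

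Slc4a11 (chr2:130684113-130697519, minus strand), a membrane transporter of protons and water known from fibrocytes of the cochlea and the corneal endothelium, had no UMI in root-like nuclei of either library. Spindle-like nuclei held 3 UMIs in each library and the Dkk2/Cndp1 cluster held none. In RNAlater, the 17 fibrocyte-like nuclei held 260 of its 333 UMIs, a level of 4119.7 CPM (3634 to 4652), with a UMI in 15 of 17 nuclei and 0 to 39 UMIs per nucleus (median 14).

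In MethFix the gene appeared instead in the bone-like cluster, at 1071 CPM (949 to 1205) with 277 UMIs, while bone-like nuclei of RNAlater held 3 UMIs. The UMIs lay in 23 of 106 MethFix nuclei, of which 14 held 10 or more. Of the 106 barcodes, 16 were fibrocyte-like in the RNAlater matrix, and these held 195 of the UMIs, with Coch, a fibrocyte marker, at 3867 CPM and no UMI of Runx2, a bone marker. A further 50 were bone-like in RNAlater and held 2 Slc4a11 UMIs, with Runx2 at 1526 CPM and Coch at 1968 CPM. The 40 others held 80 Slc4a11 UMIs in 8 nuclei, with Runx2 at 1155 CPM and Coch at 959 CPM. With the MethFix library clustered at the resolution used for RNAlater, 28 fibrocyte-like nuclei separated and stood at 3381 CPM of Slc4a11, and the 77 remaining bone-like nuclei held 2 UMIs.

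The subunits specific to the plasma membrane proton pump were close to the limit of detection in root-like and spindle-like nuclei. Atp6v1b1 (chr6:83742990-83758855, plus strand), the B1 subunit, had 11 UMIs in 6 of all 4748 MethFix barcodes and 3 UMIs in 1 of all 3868 RNAlater barcodes. Among kept nuclei, 5 UMIs remained in 4 MethFix nuclei (2 intermediate-like, 1 bone-like and 1 unnamed), and none remained in RNAlater. No root-like, spindle-like, marginal-like or basal-like nucleus held a UMI, nor did the Dkk2/Cndp1 cluster.

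Atp6v0a4 (chr6:38048483-38124586, minus strand), the a4 subunit of the membrane part of the same pump, was found mostly in basal-like nuclei. They held 62 of its 72 UMIs in MethFix and 63 of 70 in RNAlater, a level of 29.4 CPM (22.6 to 37.7) and 28.4 CPM (21.9 to 36.4), with a UMI in 44 of 748 and 40 of 604 nuclei. Root-like nuclei held 2 UMIs in each library and spindle-like nuclei none. The log2 ratio of root-like and spindle-like nuclei over the 5 other classes was -0.58 for MethFix, with an interval from -3.66 to 1.33, and -0.65 for RNAlater, from -3.73 to 1.26. No direction against this pool could be read at this depth. Against basal-like nuclei alone, the spindle-like upper limits of 14.1 and 19.0 CPM lay below the basal-like intervals, while the root-like intervals overlapped them.

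Atp6v1b2 (chr8:69088646-69113711, plus strand), the B2 subunit that serves the pumps of lysosomes and other organelles in most cells, was found in all 8 classes named here with 17 or more nuclei. Intermediate-like nuclei, the pigment cells of the SV, were highest with 123 CPM (111 to 135) and 131 CPM (118 to 145). Their interval overlapped that of the next class in each library. This was the spindle-like class in MethFix and the macrophage-like class in RNAlater, at 109 CPM (22.5 to 319) from 3 UMIs. Root-like nuclei stood at 54.4 CPM (28.1 to 95) in MethFix and 75.4 CPM (45.4 to 118) in RNAlater. Spindle-like nuclei stood at 76.3 CPM (46.6 to 118) and 61.8 CPM (31.9 to 108). Root-like and spindle-like nuclei changed places between the libraries, and their intervals overlapped.

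Foxi1 (chr11:34204338-34208089, minus strand) had no UMI in any of the 4748 MethFix and 3868 RNAlater barcodes. The upper end of the interval for 0 UMIs is 0.175 CPM over the whole MethFix matrix and 0.209 CPM over RNAlater. Within the root-like class alone it is 16.7 CPM in MethFix and 14.6 CPM in RNAlater, and within the spindle-like class 14.1 and 19.0 CPM. Foxi1 levels below these limits were not detectable at this depth.

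In nuclei with Slc26a4, the pump subunits that accompany it in kidney and endolymphatic sac were at or near the limit of detection. Of root-like and spindle-like nuclei with a Slc26a4 UMI, 0 of 128 in MethFix and 0 of 105 in RNAlater held an Atp6v1b1 UMI, which by the same count of 3 allows a share of nuclei with a UMI of up to 2.34% and 2.86%. Atp6v0a4 was found in 1 of 128 and 1 of 105, and Foxi1 in none. Atp6v1b2 was found in 22 of 128 (17.2%, 11.1 to 24.9%) in MethFix, against 4 of the 41 nuclei without Slc26a4 (9.76%, 2.72 to 23.1%). In RNAlater it was found in 23 of 105 (21.9%, 14.4 to 31.0%) against 3 of 20 (15.0%, 3.21 to 37.9%). The intervals overlapped, and nuclei with Slc26a4 were slightly deeper, with medians of 2719.5 against 2494 UMIs in MethFix and 3455 against 3245.5 in RNAlater. The groups also differed in class. Nuclei without Slc26a4 were 20 Epyc-led and 21 spindle-like nuclei in MethFix and 14 and 6 in RNAlater, and none was Lgr5-led. Thinned to 1000 UMIs, Atp6v1b2 was found in 5.94% and 10.5% of nuclei with Slc26a4, which alone does not compare the groups at equal depth.

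**Figure D4:**
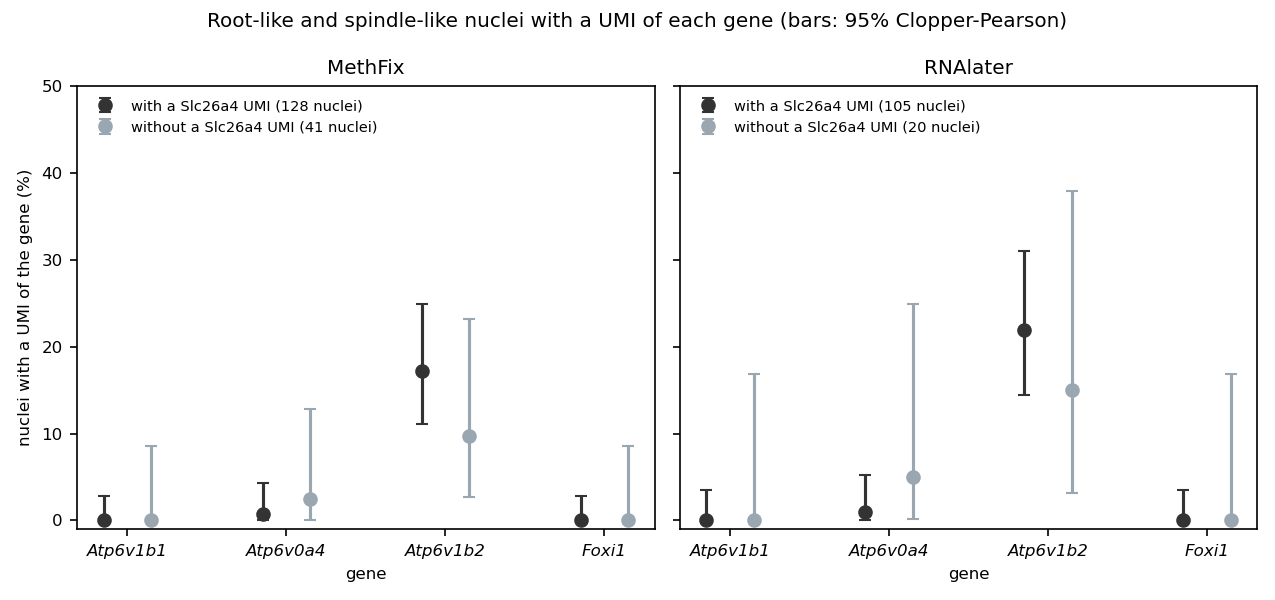
Share of root-like and spindle-like nuclei with a UMI of Atp6v1b1, Atp6v0a4, Atp6v1b2 or Foxi1, in percent, for nuclei with and without a Slc26a4 UMI in each library, with exact 95% binomial intervals. Atp6v1b1 and Foxi1 are at 0 in all groups, and the intervals of Atp6v1b2 overlap between nuclei with Slc26a4 (17.2% and 21.9%) and without it (9.76% and 15.0%).

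The cytosolic carbonic anhydrases Car2 and Car3 had their highest levels outside root-like and spindle-like nuclei. Car2 (chr3:14886273-14900770, plus strand), a fast enzyme of carbon dioxide hydration, stood at 294 CPM (276 to 312) in MethFix intermediate-like nuclei and at 281 CPM (262 to 302) in RNAlater. Its UMIs were found in 48.1% and 57.3% of these nuclei. The 17 fibrocyte-like nuclei of RNAlater stood at 238 CPM (133 to 392), an interval that overlapped the intermediate-like one. Basal-like nuclei stood at 99.2 CPM in MethFix and 103 CPM in RNAlater, and bone-like nuclei at 112 and 77.8 CPM. Root-like nuclei stood at 63.4 CPM (34.7 to 106) and 35.7 CPM (16.3 to 67.8), spindle-like nuclei at 34.3 and 20.6 CPM and marginal-like nuclei at 19.8 and 18.5 CPM. Against the 5 other classes, the log2 ratio of root-like and spindle-like nuclei was -1.37 in MethFix (-2.03 to -0.78) and -1.99 in RNAlater (-2.91 to -1.21).

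Barcodes above 10% mitochondrial UMIs, which the main filters left out of every class, held Car2 at 251 and 257 CPM, close to the intermediate-like level. The source of their Car2 UMIs was not tested.

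Car3 (chr3:14863512-14872523, plus strand), a slow carbonic anhydrase known from muscle and fat, had its highest levels in the bone-like and fibrocyte-like classes, while basal-like nuclei held 37.9% of its UMIs in MethFix and 46.5% in RNAlater. Bone-like nuclei stood at 472 CPM (392 to 563) in MethFix and 421 CPM (325 to 537) in RNAlater, and fibrocyte-like nuclei of RNAlater at 713 CPM (520.1 to 954). The MethFix bone-like cluster also held fibrocyte-like nuclei. Clustered at the resolution used for RNAlater, the 28 fibrocyte-like nuclei of MethFix stood at 664 CPM (499 to 866). The 77 remaining bone-like nuclei stood at 388 CPM (301 to 492). Among basal-like nuclei, the cluster led by Sorcs3 stood at 141 CPM (110.1 to 178) and 142 CPM (112 to 178), and the other basal-like nuclei at 28.5 and 38.1 CPM. Marginal-like nuclei, at 3.22 and 3.55 CPM, were near the lowest values.

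In root-like nuclei of MethFix, 9 of 11 Car3 UMIs were in 1 nucleus, and root-like nuclei of RNAlater held 1 UMI. The log2 ratio of root-like and spindle-like nuclei over the 5 other classes was 0.48 in MethFix (-0.32 to 1.19) and -1.82 in RNAlater (-4.11 to -0.25), from 17 and 3 UMIs.

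The list of 78 genes placed these values among other routes of acid and base. In root-like and spindle-like nuclei together, 26 of the 78 had at least 20 UMIs in MethFix and 26 had none. In RNAlater, 25 had at least 20 and 25 had none. Of the 51 genes with enough UMIs for the comparison with the 5 other classes, 7 were higher and 8 were lower in both libraries, beside 8.56% and 10.8% of all genes. The higher ones were Car10, Car12, Car13, Slc26a4, Slc9a4, Slc9a7 and Slc9a9. The lower ones were Atp6v1c2, Atp6v1g1, Car2, Car8, Car14, Slc26a7, Hvcn1 and Tfcp2l1. They were lower than the pool, and not always than each of its classes. Hvcn1 stood at 62.7 and 73.1 CPM in intermediate-like nuclei but at 2.58 and 3.29 CPM in marginal-like nuclei, beside 3.97 CPM in root-like nuclei of RNAlater. The 3 transcription factors of the list, Tfcp2l1 among them, summed to 68.4 and 75.8 CPM in marginal-like nuclei. In intermediate-like nuclei they summed to 2.66 and 1.76 CPM. The median log2 ratio over all genes was -0.06.

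The summed level of the 25 V-ATPase subunits, most of them shared by the pumps of all cells, was lower in root-like and spindle-like than in intermediate-like and marginal-like nuclei. It was 1024 CPM (895 to 1166) in MethFix root-like nuclei and 1003 CPM (885 to 1132) in spindle-like nuclei, against 1593 CPM (1551 to 1636) in intermediate-like and 1469.6 CPM (1435 to 1505) in marginal-like nuclei. RNAlater gave 1000.4, 988, 1592 and 1463 CPM. The lower sum was shared by the Dkk2/Cndp1 cluster (1068 and 1094 CPM), basal-like nuclei (1138 and 1182 CPM) and bone-like nuclei (1091 and 986 CPM). Atp6v0a1, the a1 subunit, was higher in root-like than in spindle-like nuclei by a log2 ratio of 1.89 (0.76 to 3.15) and 1.63 (0.48 to 2.95), at 127 against 34.3 CPM in MethFix. The genes of ammonium channels and of the proton-potassium pumps had no UMI in root-like or spindle-like nuclei. This did not set these nuclei apart. In Dkk2/Cndp1, marginal-like, intermediate-like, basal-like and bone-like nuclei, the ammonium channels also had no UMI in either library. The proton-potassium pumps had at most 1 UMI in each of those classes.

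Carbonic anhydrases on the list divided between the classes. In root-like and spindle-like nuclei, Car8 and Car14 were lower than the pool of the 5 other classes by a log2 ratio of at least 2 in both libraries. Car2 was lower by at least 1. Car12, a membrane enzyme with its active site outside the cell, stood at 1708 and 1759 CPM in root-like nuclei, 622 and 650.3 CPM in marginal-like nuclei and 34.3 and 20.6 CPM in spindle-like nuclei. Its log2 ratio of root-like over spindle-like nuclei was 5.64 for MethFix (4.70 to 6.78), and RNAlater gave 6.42 (5.05 to 8.30). As for Slc26a4, it was higher in the Lgr5-led than in the Epyc-led cluster, at 2796 against 466 CPM in MethFix and 2692 against 547 CPM in RNAlater. Car10, a relative without enzyme activity, was at 109 and 71.4 CPM in root-like and at 168 and 191 CPM in spindle-like nuclei, with a log2 ratio over the 5 other classes of 6.48 and 5.76. Within root-like nuclei, all of its UMIs were in the Epyc-led cluster. Car13, a cytosolic enzyme, was at 127 and 143 CPM in root-like and 153 and 175 CPM in spindle-like nuclei, with a log2 ratio over the 5 other classes of 1.82 and 2.08.

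Exchangers of sodium for protons and the bicarbonate transporters also differed. Slc9a9, an exchanger of endosomes, was at 371 and 365 CPM in root-like, 252 and 283 CPM in spindle-like and 2.80 and 4.81 CPM in marginal-like nuclei. It was lower in the Lgr5-led than in the Epyc-led cluster, by a log2 ratio of -2.88 and -3.11. Slc9a4, an exchanger of basolateral membranes, was at 54.4 and 47.6 CPM in root-like, 175 and 175 CPM in spindle-like and 157 and 159 CPM in Dkk2/Cndp1 nuclei, and its log2 ratio of root-like over spindle-like nuclei was -1.69 and -1.88. Slc4a10, a sodium-driven bicarbonate transporter, was at 118 and 107 CPM in root-like, 19.1 and 30.9 CPM in spindle-like and 1013 and 875 CPM in bone-like nuclei. Slc26a2, a sulfate transporter, was at 22.7 and 3.97 CPM in root-like and 99.2 and 97.8 CPM in spindle-like nuclei. The root-like values of Slc26a2 and the spindle-like values of Slc4a10 rest on few UMIs and lie near the limit of detection.

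**Figure D5:**
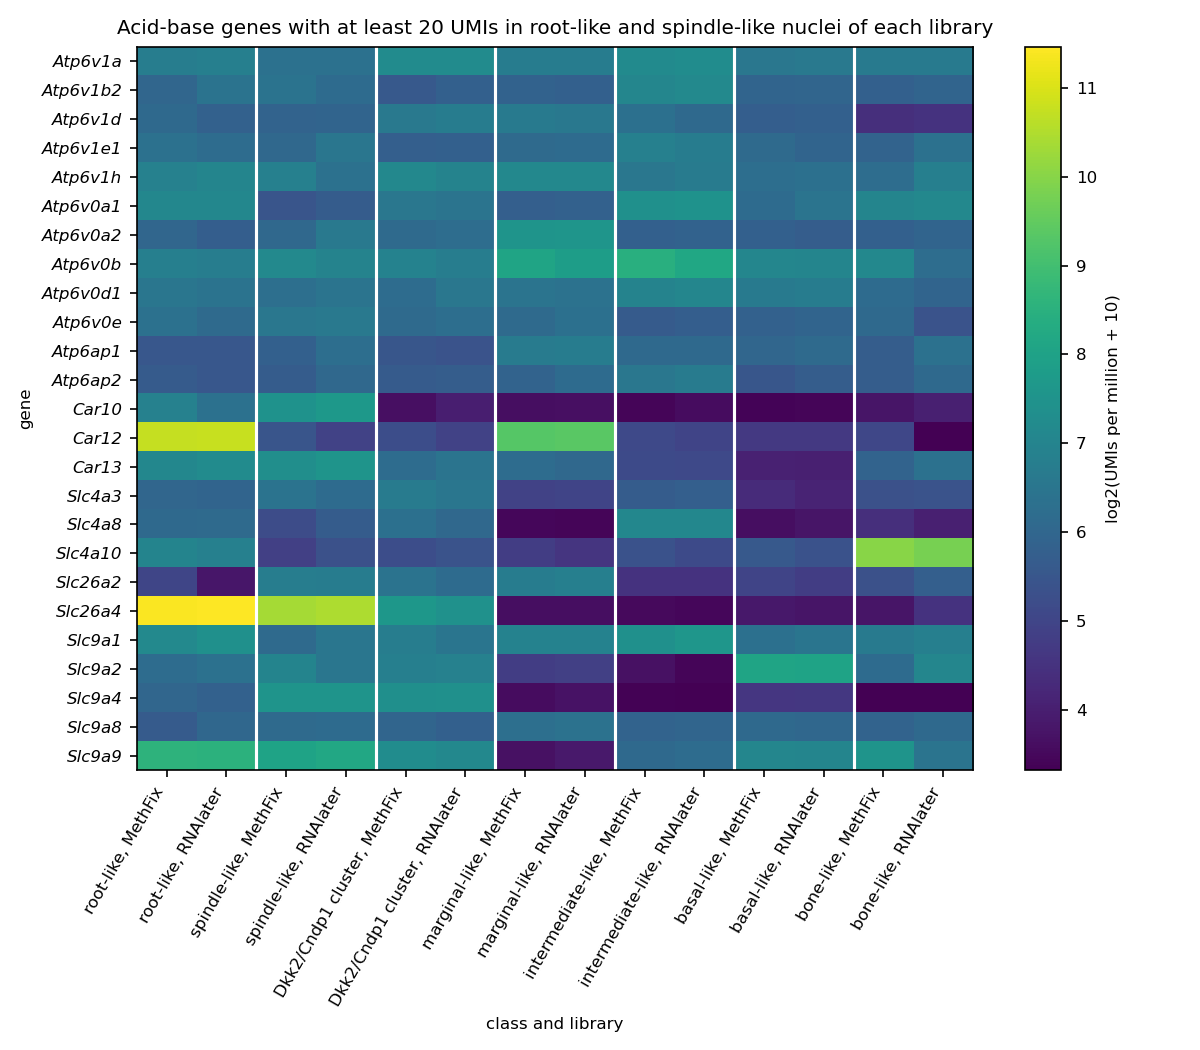
Heat map of 25 genes of the acid-base list by class and library, coloured by log2(CPM + 10), to be compared along a row and not between genes. Car12 is high in root-like (1708 and 1759 CPM) and marginal-like nuclei and low in spindle-like nuclei (34.3 and 20.6 CPM).

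The 5 genes whose levels over the classes were most like those of Slc26a4 were Fermt1, Gm14066, Tdrd12, Pnpla3 and Ccdc64. For Fermt1 the Pearson correlation of log2 levels was 0.979 over 8 classes in MethFix and 0.970 over 9 classes in RNAlater. For Slc26a7 they were Hs3st5, Gm42722, Ntf3, Otx2os1 and Tmem72, and for Car3 they were Coch, Slc4a10, Cemip, Plcxd3 and Pdgfrb. The classes share a library and most barcodes are in both matrices, so the correlations are descriptions. They pooled the root-like clusters, which differed in Slc26a4, and left out the unnamed clusters. Gm14066 was among the leading genes of the unnamed Ceacam16 cluster in both libraries, and that cluster held no Slc26a4 UMI. The likeness of Gm14066 to Slc26a4 thus did not extend to that cluster. Atp6v1b1 had too few UMIs for this comparison.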

How the data were processed

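The authors deposited, for each of 2 libraries, raw UMI counts per gene and barcode as called by Cell Ranger 3.0.1 on GRCm38, without normalization. The submitters' processing notes also name Scanpy 1.4.5. Depth is 21027671 counts in MethFix and 17681824 in RNAlater. Groups follow the labels of preservation method.

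From these counts, genes in at least 3 nuclei and barcodes holding 200 or more genes, up to 8000 UMIs and up to 10% mitochondrial UMIs were kept. Scrublet, run in scanpy 1.11.5 with an expected rate of 0.1, marked 224 barcodes (6.23%) in MethFix and 18 (0.773%) in RNAlater as doublets, which were removed. Each library was clustered with leidenalg 0.10.2 (4000 variable genes without the 78 list genes, 30 components, 10 neighbours, resolution 1 in MethFix and 1.5 in RNAlater, as the study's methods set it). Clusters were named from marker lists by a mean log2 score of at least 1 with at least 3 detected markers, 0.85 or more of the highest score for the same name, and a lead of 1 on every other name. These thresholds were chosen after the clusters had been seen. Unnamed clusters (5 of 22 in MethFix and 4 of 23 in RNAlater) entered no class.

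UMIs were summed per class and given per 1000000 UMIs of the class (CPM), with exact Poisson intervals. Shares have Clopper-Pearson intervals and ratios exact conditional binomial intervals. A sum of 0 was set to 3 counts in ratios, which makes them bounds. No test was run, since each method has 1 library and the libraries share barcodes. The ratio step and the intervals were tested on simulated counts, with the class sums of the libraries drawn independently of each other. Filtering, clustering, naming and the other steps were not tested in this way.

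The genes described with their levels were the 9 genes and some from the list. Those from the list had at least 20 UMIs in root-like and spindle-like nuclei of each library. They also had a log2 ratio of at least 1 over the other classes, or of at least 1 in size between root-like and spindle-like nuclei. The direction was the same in both libraries. The other list genes that were higher or lower than the pool are named without levels. Genes of like pattern were the 5 with the highest Pearson correlation of log2(CPM + 10), taking the lower of the libraries. The genes and lists were chosen with earlier results of these data known. Positions are of GENCODE M21 on GRCm38. Alternatives concerned filters, doublets, barcodes in both matrices, resolution, variable genes, a gate on marker UMIs, thinning, thresholds and TMM scaling with edgeR 4.0.16. Scripts ran in R 4.3.3 and Python 3.11.15 with pandas 2.3.3, scipy 1.17.1, matplotlib 3.10.9 and numpy 2.4.6.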

Additional observations from a re-analysis of the deposited data

Results flagged for a closer look

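Some values of the 9 genes went in opposite directions in the libraries, and none of these differences was tested. The log2 ratio of root-like and spindle-like nuclei over the 5 other classes was -2.50 in MethFix and 0.66 in RNAlater for Slc4a11. Fibrocyte-like nuclei had no class of their own in MethFix, where 16 of them lay in the bone-like cluster with 195 Slc4a11 UMIs, and in RNAlater their class was not among the 5 others. For Car3 the same ratio was 0.48 in MethFix and -1.82 in RNAlater, and 9 of the 17 MethFix UMIs were in 1 nucleus. For Atp6v1b2, the log2 ratio of root-like over spindle-like nuclei was -0.49 in MethFix and 0.29 in RNAlater, with intervals from -1.65 to 0.61 and from -0.83 to 1.46 that overlapped.

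Atp6v1b1 UMIs were also found in barcodes that the main filters left out and that no main comparison used. A barcode found in both matrices held 4 Atp6v1b1 UMIs in MethFix, of 8026 UMIs in all, and 3 in RNAlater, of 9540. The same barcode held 4 and 10 UMIs of Atp6v0a4, 6 and 7 of Atp6v1c2 and 5 and 6 of Slc26a7, and none of Slc26a4 or Foxi1. It passed the mitochondrial limit, with 1.47% and 1.35%, and was above the limit of 8000 UMIs. A MethFix barcode not found in RNAlater held 2 Atp6v1b1 UMIs of 12941 UMIs, with 96 of Dct, an intermediate cell marker. It was 1 of 376 MethFix barcodes above 8000 UMIs that passed the mitochondrial limit.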

How the results depend on the processing

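No paired analysis was possible because each preservation method has 1 library, and leaving out a replicate was not possible for the same reason. Of 646 alternative values for 88 results, 585 stayed within the interval of the main value or, for counts of genes, close to the main count. Beyond these, 57 moved further and 4 reversed. A reversal was counted only where the main log2 ratio was at least 1 in size, so smaller ratios could change sign without being counted. Reversed were the root-like over spindle-like ratio of Slc26a4 with the Epyc-led cluster alone (log2 -1.0 in MethFix and -0.93 in RNAlater) and the ratio of Car3 over the other classes in RNAlater, with no upper limit on UMIs (0.85) and with nuclei gated on marker UMIs (0.11). The level of Slc26a4 in root-like nuclei moved to 2381 CPM in MethFix and 2362 CPM in RNAlater with no upper limit, to 2175 CPM in MethFix with a mitochondrial limit of 20%, and to 1709.5 and 2024 CPM with the gate. In spindle-like nuclei it moved to 1231 CPM in RNAlater with no upper limit and to 597 and 549 CPM with the gate. The ratio of Slc26a4 over the other classes moved to 6.88 and 6.89 with the gate and to 6.90 and 6.77 with the Epyc-led cluster alone as root-like. Its root-like over spindle-like ratio moved to 0.78 in MethFix with the limit of 20%, to 1.52 and 1.88 with the gate, to 1.78 and 1.66 with the Lgr5-led cluster alone, and to 0.73 and 0.72 with the unnamed Ceacam16 cluster included. Of the 9 genes, those lower than the pool of the 5 other classes fell from 2 to 0 with the gate and to 1 (Slc26a7) at a log2 ratio of 2. Those higher in root-like than in spindle-like nuclei fell from 1 to 0 with no upper limit, with the limit of 20%, with barcodes found in both matrices alone, and at a log2 ratio of 2. With the gate, 1 gene (Slc26a7) was lower there. Thinned to 1000 UMIs, the share of spindle-like nuclei with Slc26a4 was 62.6% and 56.6%, and among nuclei with Slc26a4 Atp6v1b2 was found in 5.94% and 10.5% and Atp6v0a4 in RNAlater in 0%. Apart from the choice of cluster, gate and thinning, which change the nuclei or UMIs by construction, the cause was not tested. TMM scaling moved all log2 ratios over the other classes by -0.17 and -0.20, and no member's direction changed with it. Depth limits Atp6v1b1, Atp6v0a4 and Foxi1 most, with 0 to 2 UMIs in root-like and spindle-like nuclei.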
